A study of Mus musculus with 4 samples.

Results

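Transcript levels of 9 luminal regulators and hormone receptors were examined in mouse breast cancer cells derived from tumours that carried or lacked Pak1, a p21-activated kinase that signals below Rac and Cdc42. The genes were Esr1, Pgr and Prlr, which encode the estrogen, progesterone and prolactin receptors, and Gata3, Foxa1, Elf5, Ehf, Spdef and Tbx3, which encode transcription factors of mammary epithelium. They were chosen by name, as every non-control probe that the array design assigns to one of the 9 symbols, out of 31709 genes or transcripts named on the array. This gave 14 probes: 3 for Esr1, 2 each for Pgr, Prlr and Ehf, and 1 for each other gene. The brightest probe over the 4 arrays stood for a gene.

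The inner, luminal layer of the mammary epithelium holds cells that sense hormones and cells that make milk. GATA3 and FOXA1 maintain the luminal identity of hormone-sensing cells, and FOXA1 opens chromatin for the estrogen receptor. Prolactin acts through its receptor, the kinase JAK2 and STAT5 on alveolar cells, where ELF5, an ETS family factor, drives milk gene expression. EHF and SPDEF are further ETS factors of epithelia, and TBX3 is a T-box factor needed for the early mammary gland.

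Both groups of cells were derived from MMTV-Neu mice. In this model the mouse mammary tumour virus promoter drives the Neu (Erbb2, Her2) oncogene in mammary epithelium, and every sample carried that transgene. One group was labelled Pak1-/- (2 samples) and the other Pak1+/+ (2 samples), with 2 tumours per group per the design text; the ages of the mice are not given in the sources used here. All cells were grown in low-calcium medium with 5% horse serum, kept without serum for 3 h and then given EGF for 15 min. Total RNA was labelled with Cy3 and hybridised to a single-colour Agilent array with 60-base probes, and levels are normalized log2 intensities, which cannot be compared between probes. The purpose was to find transcripts that differ with the loss of Pak1.

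The 4 arrays had similar signal. The median spot intensity was 322 to 331 over a local background of 39.0 to 42.0, and 62.2% to 70.4% of probes were well above background (a probe that fails this on an array is called dim below). The arrays lay on 1 slide, Pak1-/- at positions 1 and 2 and Pak1+/+ at positions 3 and 4. The effects of slide position and of genotype therefore cannot be told apart. The Pak1 probe was not lower under the Pak1-/- label (12.23 ± 0.03 against 12.04 ± 0.0020, SD, n = 2 each; difference 0.19, adjusted p = 0.070 in limma), and with cyclic loess normalization it was higher (0.27, adjusted p = 0.027). Whether the probe lies in the deleted part of the gene was not analysed here, and outside that part it would be no check of the labels. Every direction here therefore rests on the labels of the arrays. The probe of the mouse gene Erbb2 read 0.31 lower in Pak1-/- cells (adjusted p = 0.020 in limma), a call lost in 3 of 4 cases when 1 sample was left out. Whether this probe also reads the Neu transgene was not analysed here. The luminal keratin genes Krt8 and Krt18 and the epithelial genes Epcam and Cdh1 were well above background on all 4 arrays, whereas Krt19 was near background, at 6.94 to 8.13. In samples of whole RNA, fewer cells of a type and less RNA per cell cannot be told apart.

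The probes on which the main results rest are shown here by the first 30 of their 60 bases, 5′ to 3′ as deposited, because each result belongs to the piece of transcript that its probe binds. They are 1 for Foxa1, 1 for Gata3, 2 for Ehf, 1 for Elf5 and 2 for Prlr.
Foxa1 A_55_P2053933: gcatggtttactccttttctttacagccga
Gata3 A_66_P111011: ttaaggaatatagggggattaaagtatgga
Ehf A_66_P109519: ggattctgatcaatgaagaaccggacgtaa
Ehf A_55_P2070809: gacagtaagactttctgccgggctcagatc
Elf5 A_51_P455866: tgtctagtgaccggcactgaatagcaatgc
Prlr A_66_P139387: caggttaacactacagagtcatgaaggaat
Prlr A_52_P458279: cttgaaagacacaactgtgtggatcattgt
On mm9 (NCBI37) these probes lie at chr12:58641764-58641823 (Foxa1), chr2:9779551-9779610 (Gata3), chr2:103106827-103106886 and chr2:103114043-103114102 (Ehf), chr2:103290958-103291017 (Elf5), and chr15:10259066-10259125 and chr15:10255629-10255688 (Prlr). The array design places each in a RefSeq transcript of its gene, and whether a probe falls in coding sequence or in an untranslated region was not analysed here. The Ehf probes lie 7.22 kb apart and the Prlr probes 3.44 kb apart, so each pair reads separate stretches of its gene.

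Of the 9 genes, 7 had a brightest probe well above background on at least 2 arrays and were tested. Foxa1, Gata3 and Ehf were higher in Pak1-/- cells, no gene was lower, and 4 genes (Esr1, Prlr, Elf5 and Spdef) did not pass an adjusted p of 0.05 in limma. At an unadjusted p under 0.05, 3 genes were higher and 2 (Prlr and Elf5) lower. Pgr and Tbx3 were dim on every array. Calls were common on these arrays, since 51.1% of the 21890 genes tested passed the same threshold, 22.8% higher and 28.3% lower. The median difference was 0.11 for the 7 genes, which is the value of Esr1, against −0.06 for all genes tested. Groups were free of overlap for 6 of the 7 genes and for 77.6% of all genes tested.

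**Figure D1:**
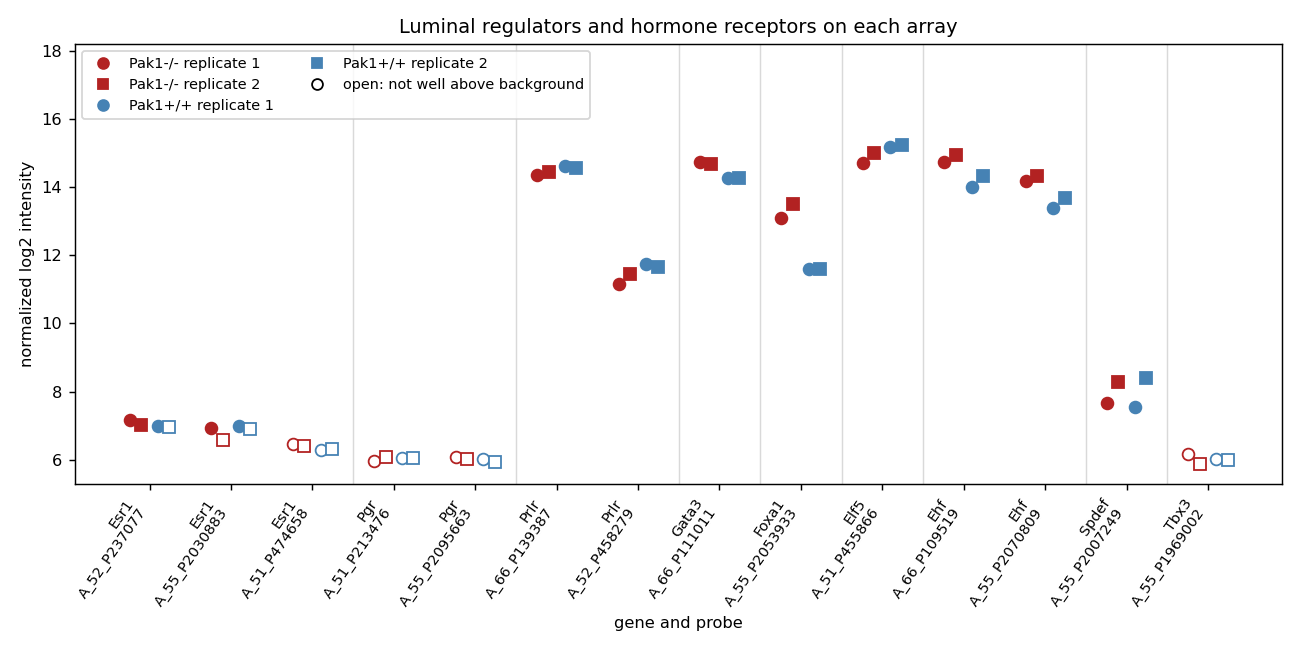
Normalized log2 intensity (y axis) of all 14 probes of the 9 genes (x axis) on the 2 Pak1-/- arrays (red) and the 2 Pak1+/+ arrays (blue), where circles are replicate 1, squares replicate 2 and open symbols are not well above background. The Foxa1 probe sits at 13.10 and 13.50 in Pak1-/- cells and at 11.58 and 11.59 in Pak1+/+ cells, while both Pgr probes and the Tbx3 probe are open on every array.

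**Figure D2:**
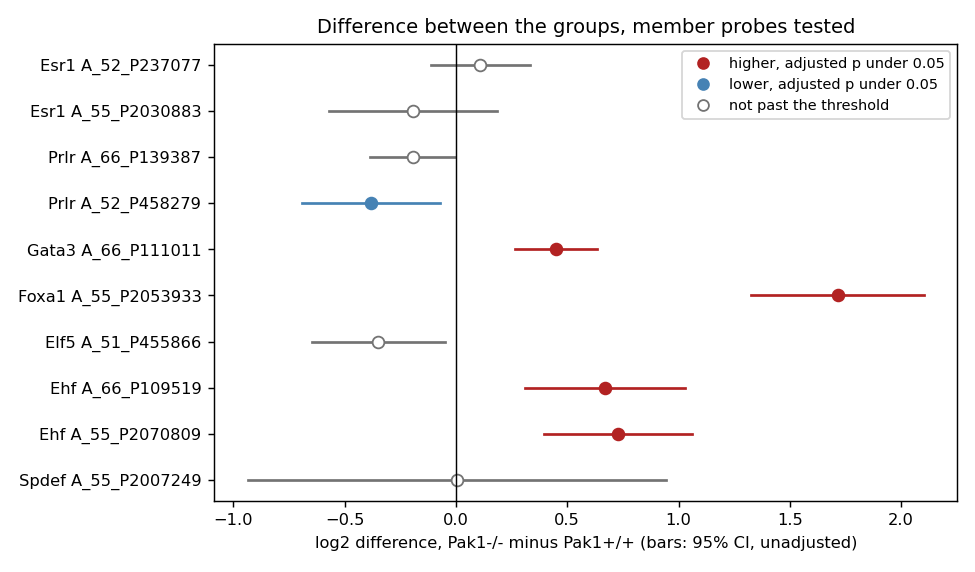
Log2 difference, Pak1-/- minus Pak1+/+ (x axis), of the 10 probes tested (y axis), with unadjusted 95% confidence intervals from limma and filled symbols for an adjusted p under 0.05. The probes of Foxa1, Gata3 and Ehf lie to the right of 0, both Prlr probes and Elf5 lie to the left, and the interval of Spdef runs from −0.93 to 0.94.

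Foxa1 showed the largest difference of the 7 genes tested. It encodes the forkhead pioneer factor of hormone-sensing luminal cells. Its level was 13.10 and 13.50 on the Pak1-/- arrays and 11.58 and 11.59 on the Pak1+/+ arrays. Both Pak1-/- samples were therefore above both Pak1+/+ samples, and the SD was 0.28 for Pak1-/- against 0.00088 for Pak1+/+. The log2 difference was 1.71 (SE 0.15, 95% interval 1.33 to 2.10, adjusted p = 0.0012 in limma), a 3.28-fold higher level. In size it exceeded the differences of 95.1% of the genes tested. The call was made under each of 13 other settings and samples left out, with differences of 1.51 to 1.91.

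Gata3, the zinc finger factor required for luminal differentiation, also rose in Pak1-/- cells, by a smaller amount. Its level was 14.75 and 14.68 in Pak1-/- and 14.26 and 14.28 in Pak1+/+ cells. The samples of a group lay close together and the groups were well separated. The log2 difference was 0.45 (SE 0.07, 95% interval 0.26 to 0.63, adjusted p = 0.0066 in limma), or 1.36-fold. It passed the threshold under each of the 13 alternatives, at 0.38 to 0.55.

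The promoters of Foxa1 and Gata3 are given because both transcripts rose and because FOXA1, GATA3 and the estrogen receptor are known to act on each other's genes. The 250 bases before the start of each gene are from RefSeq (GRCm38.p6), 5′ to 3′ in the direction of transcription, and capitals mark any match to the motifs searched on both strands.
Foxa1 chr12:57546112-57546361, minus strand: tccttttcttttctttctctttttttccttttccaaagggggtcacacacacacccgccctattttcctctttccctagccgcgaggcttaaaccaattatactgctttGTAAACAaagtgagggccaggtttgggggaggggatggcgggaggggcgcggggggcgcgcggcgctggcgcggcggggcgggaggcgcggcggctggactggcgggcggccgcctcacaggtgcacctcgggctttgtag
Gata3 chr2:9878601-9878850, minus strand: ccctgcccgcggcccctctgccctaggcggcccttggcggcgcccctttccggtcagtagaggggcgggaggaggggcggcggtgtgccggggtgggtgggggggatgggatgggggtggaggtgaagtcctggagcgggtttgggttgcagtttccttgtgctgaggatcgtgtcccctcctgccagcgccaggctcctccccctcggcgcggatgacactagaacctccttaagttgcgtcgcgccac
The motifs were the forkhead core TGTTTAC, the GATA motif AGATAA, the ETS motif CGGAAG and the nuclear receptor half-site AGGTCA, which do not overlap one another as written. The Foxa1 sequence held 1 match, to the forkhead core on the reverse strand, beginning at base −141 from the start, and the Gata3 sequence held none of the 4 motifs. The forkhead core was present in 3.17% of all 32851 upstream sequences of this length, the GATA motif in 9.99%, the ETS motif in 13.6% and the half-site in 14.0%. RefSeq entries were found for 7 of the 9 genes (11 sequences), and the only other forkhead match among them was in 1 of the 3 Prlr sequences. A match describes letters only. The Gata3 sequence was 70.0% G or C and the Foxa1 sequence 62.0%, against a median of 52.4%.

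The ETS factors did not move as a group. Ehf was higher in Pak1-/- cells, Elf5 lay lower without passing the threshold, and Spdef showed no difference that its replicates could resolve. For Ehf, an epithelial ETS repressor and activator, the brightest probe read 14.75 and 14.93 in Pak1-/- and 14.01 and 14.32 in Pak1+/+ cells. The groups did not overlap, and Pak1+/+ replicate 2, at 14.32, was the nearer of its group to the Pak1-/- samples. The log2 difference was 0.67 (SE 0.14, adjusted p = 0.015 in limma), or 1.59-fold. The second Ehf probe read 14.19 and 14.34 against 13.39 and 13.68, a difference of 0.73 (SE 0.13, adjusted p = 0.0091). Both probes thus gave the same direction and a similar size. Without Pak1-/- replicate 2 neither passed the threshold, with differences of 0.58 and 0.66 and adjusted p of 0.076 and 0.055.

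Elf5, the ETS factor of alveolar milk-producing cells, gave 14.72 and 15.00 in Pak1-/- and 15.19 and 15.22 in Pak1+/+ cells. Both Pak1-/- samples were below both Pak1+/+ samples, and the Pak1-/- samples differed from each other (SD 0.20 against 0.02). The log2 difference of −0.35 (SE 0.11, 95% interval −0.65 to −0.05) missed the threshold (adjusted p = 0.058 in limma). It passed in 3 of 13 alternatives: with the 75th percentile in place of quantile normalization (−0.42, adjusted p = 0.039), with probes well above background on all 4 arrays (adjusted p = 0.045), and without Pak1-/- replicate 2 (−0.49, adjusted p = 0.022). Without Pak1-/- replicate 1 the difference shrank to −0.21 (adjusted p = 0.12). Over all alternatives the adjusted p ranged from 0.022 to 0.17.

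Spdef, an ETS factor of secretory luminal cells, was weakly expressed, with 7.67 and 8.29 in Pak1-/- and 7.54 and 8.41 in Pak1+/+ cells. In both groups replicate 1 was the lower and replicate 2 the higher sample, and the groups overlapped fully. The difference was 0.01 (SE 0.36, adjusted p = 0.99 in limma), with a 95% interval of −0.93 to 0.94. This unadjusted interval spans changes of up to about 1.92-fold in either direction and is not a limit of detection. Leaving out 1 sample at a time moved the difference from −0.43 to 0.44.

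Ehf and Elf5 are neighbouring genes on chromosome 2, and their probes lie 184 kb apart on mm9. The genes around the pair were therefore read as well, a comparison chosen after the values of Ehf and Elf5 had been seen. In chromosome order these were Cd44 (a hyaluronan receptor), Pdhx, Apip, Ehf, Elf5, Cat (catalase), Abtb2 and Nat10. Apip, next to Ehf, gave 13.30 and 13.39 against 13.29 and 13.37 (difference 0.02, adjusted p = 0.88 in limma), and Pdhx also gave 0.02 (adjusted p = 0.83). Cat, next to Elf5 on the other side, was 0.44 higher (adjusted p = 0.044, lost in 6 of 13 alternatives, among them each left-out sample except Pak1-/- replicate 2), and Abtb2 was 0.49 higher (adjusted p = 0.0087). Cd44 was 0.86 lower (adjusted p = 0.0017). Nat10 was 0.38 lower (adjusted p = 0.011), a call lost without Pak1+/+ replicate 1 (adjusted p = 0.059) and without Pak1+/+ replicate 2 (0.060).

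**Figure D3:**
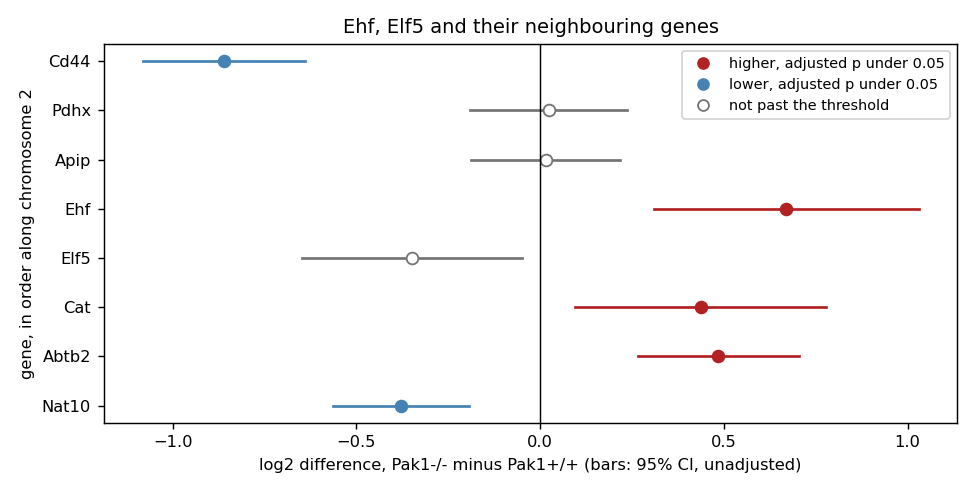
Log2 difference, Pak1-/- minus Pak1+/+ (x axis), of the brightest probe of Ehf, Elf5 and the 3 genes on either side, in the order in which they lie on chromosome 2 (y axis), with unadjusted 95% confidence intervals and filled symbols for an adjusted p under 0.05. Ehf lies at 0.67 and Elf5 at −0.35, with Apip and Pdhx at 0.02 beside Ehf.

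Of the steroid hormone receptors among the 9 genes, Esr1 was near background and Pgr was dim. Esr1, the estrogen receptor, had 3 probes. The one with the most spots (A_52_P237077, 10 spots per array, chr10:5343056-5343115 on mm9) read 7.17 and 7.02 in Pak1-/- and 7.00 and 6.96 in Pak1+/+ cells, and was well above background on 3 of 4 arrays. The Pak1-/- values lay just above the Pak1+/+ values, with 7.02 and 7.00 as the nearest of the groups. The SD over the 10 spots of an array was 0.10 to 0.13. The log2 difference was 0.11 (SE 0.08, 95% interval −0.11 to 0.33, adjusted p = 0.32 in limma). It ran from 0.04 without Pak1-/- replicate 1 to 0.19 without Pak1-/- replicate 2, and was 0.05 with outlier spots kept and 0.26 with the scaled processed signal.

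The other Esr1 probes were no brighter. A_55_P2030883 read 6.94 and 6.57 against 6.99 and 6.90 and was well above background on 1 array of each group. Its difference was −0.19 (adjusted p = 0.31), opposite in sign to that of the first probe, and it passed the threshold only without Pak1-/- replicate 1 (−0.38, adjusted p = 0.047). Without Pak1-/- replicate 2 it was −0.0045, and with the scaled processed signal −0.71. A_51_P474658, at 6.29 to 6.46, was dim on all 4 arrays. The raw intensity of the 3 probes was 64.2 to 127 over a local background of 38.7 to 43.5.

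Pgr, the progesterone receptor and a classical target of the estrogen receptor, was not well above background on any array by either probe, so it had only a bound in both groups and no fold is given. The probes read 5.96, 6.07, 6.06 and 6.06 (A_51_P213476) and 6.07, 6.02, 6.04 and 5.92 (A_55_P2095663) on the Pak1-/- and then the Pak1+/+ arrays. Raw intensities of 46.9 to 53.4 stood over a local background of 36.0 to 41.5. Tbx3 was likewise not well above background, with 6.18 and 5.88 in Pak1-/- and 6.02 and 6.00 in Pak1+/+ cells. At these intensities a difference between the groups in Pgr or Tbx3 was not detectable.

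Prlr, a cytokine-type receptor, was in contrast bright on all 4 arrays. Its brightest probe read 14.36 and 14.44 in Pak1-/- and 14.62 and 14.57 in Pak1+/+ cells. The Pak1-/- samples were both below the Pak1+/+ samples, by a margin that missed the threshold (difference −0.19, SE 0.07, adjusted p = 0.082 in limma; −0.09 with cyclic loess). The second probe read 11.17 and 11.45 against 11.73 and 11.65, and its difference of −0.38 (SE 0.12, adjusted p = 0.049) was past the threshold. Both probes pointed the same way, but the call of the second was lost in 10 of 13 alternatives, among them each left-out sample except Pak1-/- replicate 2 (adjusted p of 0.10 to 0.16), and the difference was −0.24 without Pak1-/- replicate 1. By the brightest probe, Prlr was counted as not passing.

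Known targets of the estrogen receptor moved in both directions. Of 15 genes listed, 13 were tested, 6 were higher, 3 were lower and 4 did not pass, with a median of 0.12. Among the alternatives this median ran from 0.079, with no filter on dim probes or with probes well above background on all 4 arrays, to 0.22 with the scaled processed signal, and it was 0.19 without Pak1-/- replicate 1. The largest increase was that of Igfbp4, which encodes an IGF binding protein. It was 12.56 and 13.10 in Pak1-/- cells and not well above background in Pak1+/+ cells, at least 62.4-fold higher. Its adjusted p (0.00012 in limma) belongs to the fitted difference, which uses the dim values, and not to this bound. Stc2, a secreted glycoprotein gene, was 2.48 higher (SE 0.07, adjusted p = 0.00010), and Ctsd, the lysosomal protease cathepsin D, was 1.47 higher (SE 0.08, adjusted p = 0.00034). The chemokine gene Cxcl12 was not well above background in Pak1+/+ cells and at least 2.93-fold higher in Pak1-/- cells. The adjusted p of its fitted difference was 0.0010 in limma.

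Of the estrogen receptor targets, 3 fell. Ccnd1, which encodes cyclin D1, gave 15.83 and 15.97 in Pak1-/- against 17.31 and 17.18 in Pak1+/+ cells, a difference of −1.34 (adjusted p = 0.00068 in limma). Xbp1, a factor of the unfolded protein response and secretory cells, was 0.93 lower (adjusted p = 0.0020). Areg, the EGF family ligand amphiregulin, was 0.89 lower (adjusted p = 0.036), a call that was lost in 6 of its alternatives, among them each left-out sample except Pak1+/+ replicate 2 (adjusted p of 0.067 to 0.17). For Greb1, 2 probes disagreed: the brightest gave −0.20 (adjusted p = 0.075) and the other 0.44 (adjusted p = 0.039). Tff1 and Susd3 were dim on every array.

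All 10 steroid receptor coregulators read here were tested, and 1 was higher, 3 were lower and 6 did not pass (median 0.05, which took either sign among the alternatives). Nrip1, a corepressor that is itself an estrogen target, gave 13.74 and 13.84 in Pak1-/- against 13.30 and 13.22 in Pak1+/+ cells, a difference of 0.54 (adjusted p = 0.0053 in limma). Carm1, an arginine methyltransferase, fell by 0.59 (adjusted p = 0.0026). Ncoa1, a p160 coactivator, fell by 0.37 (adjusted p = 0.043) and Pelp1, a coregulator rich in proline and glutamate, fell by 0.29 (adjusted p = 0.024), and each of these calls was lost in 7 of 13 alternatives. Under cyclic loess normalization the split was 4 higher and 1 lower. The count of higher genes was 2 without Pak1-/- replicate 2, with the replicate block and with probes well above background on all 4 arrays, and the count of lower genes was 1 without any 1 sample other than Pak1-/- replicate 1.

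Of 9 genes listed for progesterone action, which include secreted mediators such as Wnt4, Areg and Tnfsf11 and intracellular genes such as Id4, Fkbp5 and Zbtb16, 6 were tested, with 1 higher, 3 lower (Areg, Id4 and Fkbp5) and 2 not passing. The median was −0.53, but −0.33 in the authors' table of log2 values and −0.18 with no filter on dim probes, and the count of higher genes was 2 in that table and 0 with probes well above background on all 4 arrays. Wnt4, a progesterone-induced ligand, was 8.37 and 8.34 in Pak1-/- cells and not well above background in Pak1+/+ cells, at least 2.80-fold higher. The adjusted p of its fitted difference was 0.00015 in limma. Id4, an inhibitor of basic helix-loop-helix factors, ran the other way. It was 10.27 and 9.77 in Pak1+/+ cells and not well above background in Pak1-/- cells, at least 10.4-fold lower. Its fitted difference had an adjusted p of 0.00035 in limma. Fkbp5, a chaperone of steroid receptors, was 0.73 lower (adjusted p = 0.0019). Tnfsf11, the gene of the ligand RANKL, and Calca were dim on every array.

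Of 17 genes listed for the prolactin pathway and milk, which include the hormone gene Prl and the related receptor gene Ghr, 12 were well above background on at least 2 arrays. The brightest of 2 Csn3 probes was saturated on all 4 arrays and could show no difference, and its second probe is not reported here. Of the 11 other genes, 7 were higher, 1 was lower and 3 did not pass. The median of the 12 was 0.67, or 0.43 with Csn1s2a at its bound and without Csn3. It rose to 1.02 in the authors' table of log2 values and was near 0 with no filter on dim probes, and 2 genes were lower with probes well above background on all 4 arrays or with the mean over a gene's probes. Jak2 (−0.21, adjusted p = 0.056 in limma) and Stat5b (−0.25, adjusted p = 0.076) did not pass, and Stat5a was 0.43 higher (adjusted p = 0.0080). The feedback inhibitors of this pathway split: Cish was 1.34 and Socs1 1.35 higher (adjusted p = 0.0022 and 0.0017), whereas Socs2 was 14.06 and 13.93 in Pak1-/- against 16.37 and 16.03 in Pak1+/+ cells, 2.20 lower (adjusted p = 0.00054).

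Of the milk genes, some were bright and others dim throughout. Csn1s1, the alpha-S1 casein gene, was 16.45 and 16.41 in Pak1-/- against 12.36 and 12.44 in Pak1+/+ cells, a difference of 4.03 (SE 0.07, adjusted p = 4.4e-05 in limma). Csn1s2b, another casein gene, was 2.36 higher (adjusted p = 0.00012), and Csn1s2a, not well above background in Pak1+/+ cells, was at least 1.34-fold higher. Lalba, the lactose synthase subunit, gave −0.03 (adjusted p = 0.85). Csn2, Wap and Glycam1 were dim on every array, as was Prl, the gene of the hormone itself. Ghr, the growth hormone receptor and a relative of Prlr, was 2.40 higher (11.63 and 11.54 against 9.22 and 9.14, adjusted p = 0.00012).

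**Figure D4:**
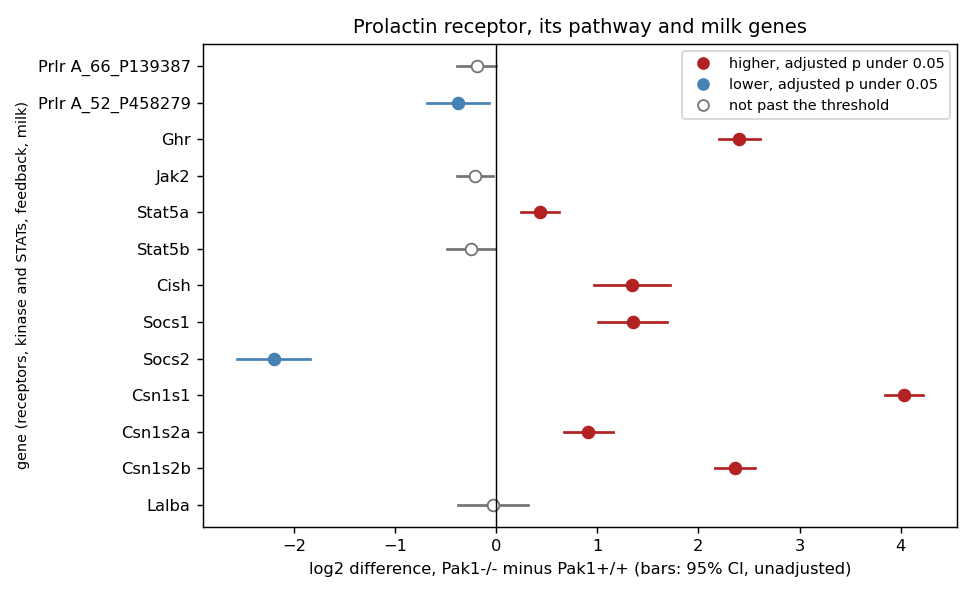
Log2 difference, Pak1-/- minus Pak1+/+ (x axis), of the 2 Prlr probes and of pathway and milk genes by their brightest probe (y axis), with unadjusted 95% confidence intervals and filled symbols for an adjusted p under 0.05. Socs2 lies at −2.20 and Csn1s1 at 4.03, on either side of Prlr, Jak2 and Stat5b, which lie between −0.38 and −0.19; Csn3 (saturated) is left out, and Csn1s2a, not well above background in Pak1+/+ cells, is drawn at its fitted value and not at its bound.

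Among 17 other hormone and nuclear receptors, 16 were tested, 8 were higher, 2 were lower and 6 did not pass (median 0.23). The median was 0.41 without Pak1-/- replicate 2, and the count of lower genes was 1 without any 1 of the 4 samples, with the replicate block, with cyclic loess and with no filter on dim probes. Vdr, the vitamin D receptor, was 15.16 and 14.86 in Pak1-/- against 11.12 and 11.05 in Pak1+/+ cells (3.93, SE 0.12, adjusted p = 0.00011 in limma). Oxtr, the oxytocin receptor of myoepithelial cells, was 12.65 and 12.10 against 8.47 and 8.59 (3.84, SE 0.20, adjusted p = 0.00033). Thrb, a thyroid hormone receptor, was 0.85 lower (adjusted p = 0.0091), a call lost without Pak1-/- replicate 1 (adjusted p = 0.057). Esr2, the second estrogen receptor, gave 13.97 and 13.49 against 13.66 and 13.57, and its groups overlapped (difference 0.12, SE 0.18, adjusted p = 0.61).

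Paralogs of the 9 genes did not share one direction. Of 12 paralogs 8 were tested, with 4 higher, 2 lower (Tbx2 and Elf3) and 2 not passing (median 0.29). The count of lower genes was 1 under 10 alternatives, among them the replicate block and each left-out sample except Pak1-/- replicate 2, and the median was 0.10 with no filter on dim probes. Gata4 (9.73 and 9.91 against 7.67 and 7.80) was 2.09 higher and Gata6 1.29 higher (adjusted p = 0.00028 and 0.00041 in limma), both GATA factors better known from endoderm. Elf1, an ETS factor related to Elf5, was 1.01 higher (adjusted p = 0.00081), and Tbx2, the closest relative of Tbx3, was 0.96 lower (adjusted p = 0.0033). Foxa2 and Foxa3 were dim on every array, so that Foxa1 was the only FOXA gene measured above background.

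Of 17 other transcription factors of the luminal network, all tested, 8 were higher, 5 lower and 4 did not pass (median 0.10). Without replicate 1 of either group 3 were lower, and the median ran from 0.06 without Pak1-/- replicate 2 to 0.18 without Pak1-/- replicate 1, with 0.04 for the scaled processed signal and 0.19 for cyclic loess. Nfib, a nuclear factor I gene, was 1.08 higher (adjusted p = 0.0018 in limma) and Bcl11a, a zinc finger gene of mammary progenitors, was 0.84 higher (adjusted p = 0.0013). Grhl1, a grainyhead-like factor of epithelia, was 1.23 lower (adjusted p = 0.0018), and Xbp1, given above, was also in this group. Zfpm1, which encodes the GATA cofactor FOG1, gave 0.10 (adjusted p = 0.30).

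Luminal markers differed in both directions, and most basal markers were higher in Pak1-/- cells. Of 17 luminal markers 15 were tested, 5 were higher, 3 lower and 7 did not pass, with a median of −0.0047 that took either sign among the alternatives. The split was 3 higher with the scaled processed signal and 5 lower with normexp values scaled to the 75th percentile. Prom1 (2.50), Aldh1a3 (1.68) and Cdh1, the gene of E-cadherin (1.19), were higher, with adjusted p no higher than 0.0012 in limma, and Cd14 was 1.70 lower (adjusted p = 0.00054). Of 13 basal and myoepithelial markers 12 were tested; 9 were higher, none was lower (0 also at an unadjusted p under 0.05, but 1 under either scaling to the 75th percentile) and 3 did not pass (Tagln −0.20, Sox10 −0.10 and Cnn1 0.04), with a median of 1.29, or 1.12 with Snai2 at its bound. Krt17 (4.92), Oxtr (3.84), Krt14 (2.83) and Acta2 (1.69) differed most, with adjusted p no higher than 0.0026, and Trp63, the basal master regulator, was 0.43 higher (adjusted p = 0.019).

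These 9 of 12 basal markers were higher under the same label as Foxa1, Gata3 and Ehf, while Myh11 was dim on every array. The summed linear level of the 13 basal markers was 256973 to 281542 in Pak1-/- and 154049 to 166002 in Pak1+/+ cells. Such a sum is weighted by the brightest probe, here Sox10 with 35.1% to 69.7% of it, and without Sox10, left out after its values were seen, it was 151819 to 182682 against 50255 to 51186. The defining markers Trp63, Krt5, Krt14, Krt17 and Acta2 were well above background on all 4 arrays. Their part in the differences of the 9 genes was not tested. Of other cell types, 2 of 5 leukocyte markers tested were lower (Adgre1 by 1.05 and Ptprc by 0.45, adjusted p = 0.0011 and 0.0056 in limma) and none was higher, although 1 was higher without Pak1-/- replicate 2, with the replicate block and with cyclic loess. None of 3 endothelial markers passed, although 1 was higher with the mean over a gene's probes, and 1 of 3 fibroblast and adipocyte markers, Col1a1, was higher (1.12, adjusted p = 0.0051), with 1 lower only when dim probes were kept. The summed levels were 50508 to 72951 against 41648 to 46633 for leukocyte markers, but 90.5% to 94.5% of that was 1 Itgam probe, and without it, a choice also made after the values were seen, they were 3956 to 4032 against 3568 to 3967. They were 9921 to 10302 against 8989 to 10803 for endothelial markers, of which the Kdr probe held 90.2% to 91.9%, and 1356 to 1532 against 1212 to 1253 for fibroblast and adipocyte markers. Col1a1 held 20.2% to 41.6% of this last sum. Without it, also a choice made after the values were seen, the direction turned round, at 884 to 895 in Pak1-/- against 968 to 991 in Pak1+/+ cells. At an unadjusted p under 0.05 the counts of these other cell types were the same. Lyz2, Tek, Lum, Dpt and Adipoq were dim on every array.

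**Figure D5:**
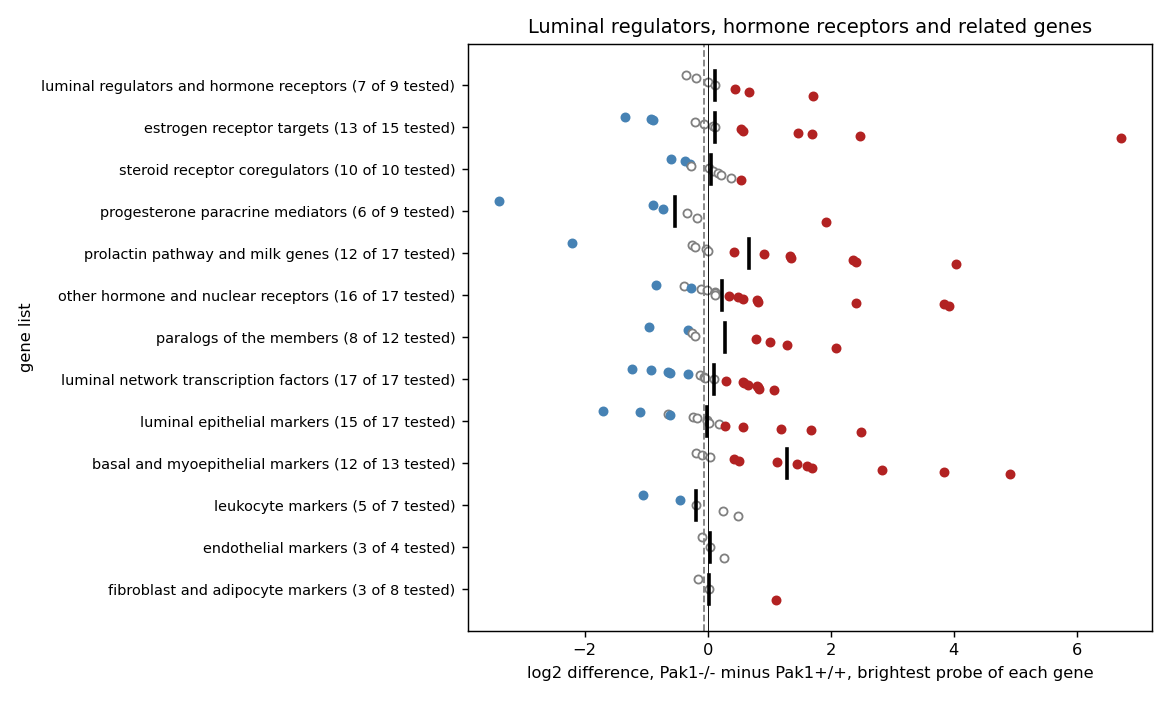
Log2 difference, Pak1-/- minus Pak1+/+ (x axis), of the brightest probe of each gene tested, by gene list (y axis), where filled points have an adjusted p under 0.05 (red higher, blue lower), black bars are list medians and the dashed line is the median of all genes tested (−0.06). The 7 luminal regulators and hormone receptors tested have a median of 0.11 and the basal and myoepithelial markers one of 1.29; genes not well above background in 1 group are drawn at their fitted value, which is not a bound.

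The genes whose 4 values ran most like those of Foxa1 and Ehf, the 2 members with the largest differences among those bright on all arrays, were found by the Euclidean distance of values centred on each gene's mean, over 19063 other genes. Nearest to Foxa1 were Wfdc3 (distance 0.09), Rhox5 (0.10) and Gm5649 (0.10), with differences of 1.71, 1.67 and 1.81. Nearest to Ehf were ENSMUST00000109703 (0.04), BC051226 (0.06) and Rprl2 (0.08), with differences of 0.65, 0.64 and 0.60. With 4 arrays in 2 groups, such a distance describes the size of the difference and the gaps within each group and nothing else.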

How the data were processed

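The 4 arrays (2 per group) were read from the deposited scanner files, made by the authors with Agilent Feature Extraction 9.5. These hold linear spot intensities (mean signal, local background and a processed intensity) that the authors had not normalized between arrays, with flags for spots that are well above background, saturated or outliers. A deposited table of log2 values, which the authors background corrected (normexp) and quantile normalized, served as an alternative. Following the study's methods, all spots were background corrected by the normexp method (limma 3.58.1 in R 4.3.3; offset 50, set here), controls were dropped, and quantile normalization was applied to the log2 values. Spots flagged as outliers were dropped before averaging the spots of a probe. Of 39429 probes, 27229 were well above background on at least 2 of 4 arrays, and 27215 with a value on every array were tested by lmFit and eBayes, two-sided, with genotype as the only term. The p-values were adjusted over all of these by Benjamini-Hochberg, with a threshold of 0.05. Confidence intervals are not adjusted.

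With 2 samples a group the residual degrees of freedom were 2, to which the prior added 2.63, and the number of arrays limits precision. The offset makes differences of dim probes smaller. A probe not well above background in a whole group has only a bound there. Any call or adjusted p of such a probe comes from the fitted difference, which uses the dim values. Its "at least" fold sets the bright group's mean against a floor, which is, averaged over the dim arrays, the larger of the probe's level and the lowest level found well above background on the same array. Names of 26055 probes came from RefSeq accessions (GRCm38.p6) and the rest from the files, and neighbouring genes were also taken from that table. Probe coordinates are on mm9. The fit was tested on simulated data. The replicate numbers did not pair the samples (correlation of deviations −0.03). The 9 genes and all gene lists were chosen with earlier results of these data known. Genes named from a list are its defining or dim genes, those read by role, and up to 4 with the largest difference past the threshold. Some genes of these lists are not reported here and were left out of the lists' counts and medians. Human samples of the study were not analysed here.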

Additional observations from a re-analysis of the deposited data

How the results depend on the processing

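The count of 3 genes higher was 2 to 3 and that of 0 lower was 0 to 1 with 1 sample left out at a time, and 2 genes were higher at an adjusted p under 0.01; the gene that joined was Elf5, also counted as lower (1 gene) after scaling normexp values to the 75th percentile and with probes well above background on all 4 arrays. The 46 list genes higher and 21 lower stayed within 1.5 times under all alternatives (41 to 50 and 15 to 25). Counts and medians of single lists moved more, as given beside each list. With the replicate number as a block the counts were 3 higher and 0 lower among the 9 genes and 46 and 18 among list genes, and the second Prlr probe lost its call (adjusted p = 0.062 in limma). Values near 0 changed sign: Spdef ran from −0.43 to 0.44 with 1 sample left out, Pdhx from −0.043 to 0.089 and Apip from −0.028 to 0.059, and Apip was −0.014 with the processed signal and −0.0076 with normexp values scaled to the 75th percentile. The share of called genes that were higher was 44.6% with quantile normalization and 52.1% with cyclic loess. The causes were not tested. Signal near background limits what can be said of Esr1, Pgr and Tbx3, and the spread between replicates what can be said of Spdef.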

Other observations

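A probe described as progesterone receptor but named by an Ensembl transcript (A_55_P1985925), which the choice by gene name left out, read 6.18 and 6.54 in Pak1-/- and 6.24 and 6.08 in Pak1+/+ cells and was not well above background on any array, like both Pgr probes. None of the 3 probes of the leukocyte marker Itgam passed (differences of 0.49, −0.20 and 0.56, adjusted p = 0.11, 0.21 and 0.076 in limma). Of the probes of the endothelial marker Kdr, 1 gave 0.04 (adjusted p = 0.78 in limma). The other read 8.05 and 7.92 in Pak1-/- cells and was not well above background in Pak1+/+ cells, where it had only a bound. Its fitted difference of 1.37 (adjusted p = 0.00045 in limma) uses the dim values.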
